A study of Mus musculus with 4 samples.

Results

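In immortalized mouse embryonic fibroblasts that carried Myc, MycN or Minimal Myc, 6017 genes lay on the same side of the empty vector cells in all 3 cultures. They were found among 11950 measured genes, which averaged 1 FPKM or more across the 4 libraries, out of 23366 gene names. FPKM are fragment numbers divided by transcript length and by the size of the library. For each gene the difference of log2(FPKM + 1) to Vector was taken in each Myc protein library and centred by subtracting the median difference of that library. A gene was kept when its 3 centred differences were all above 0 (higher in all 3) or all below 0 (lower in all 3). All 3 differences use the same Vector library, so they are not independent, and a low or high value in Vector alone moves a gene in all 3. With 1 library per group no test could be run, no p-value is given, and the spread between replicate cultures is unknown for every value.

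The 4 cultures were an immortalized fibroblast line derived from mouse embryos, holding a construct for Myc, for MycN, for Minimal Myc or for no added protein (Vector). Every culture, Vector included, also received Cre recombinase from an adenovirus, an enzyme that removes DNA between its recognition sites, and was harvested after a recovery that the labels give as 48 without a unit. The series design describes the comparison as cells with Myc deleted set against cells that have a Myc protein. The labels give no passage, clone or promoter of the constructs, and they do not say which gene Minimal Myc was made from.

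Myc and MycN are transcription factors that bind DNA as pairs with Max, best at the E-box CACGTG. They are known for raising genes of ribosome assembly, translation and nucleotide synthesis, and Myc is known for holding down cell cycle inhibitors such as Cdkn1a through the zinc finger protein Miz-1. Max also pairs with Mxd proteins, Mxi1 and Mnt, which compete for the same sites.

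The added proteins were visible in the values. Myc stood at 141, 4.36 and 32.6 FPKM in Myc, MycN and Minimal Myc cells, against 22.2 FPKM in Vector cells. Mycn stood at 0.275, 178 and 95.9 FPKM in the same 3 cultures, against 0.390 FPKM in Vector cells. Each added gene was therefore high in the culture labelled with it, and Mycn reads were also high in Minimal Myc cells. The Vector cells, described as deleted for Myc, held more Myc FPKM than the MycN cells, so the values do not show that they lack Myc RNA. Of 12 measured fibroblast markers, all with a level in every library, Vim, an intermediate filament gene, stood at 830, 476 and 750 FPKM in Myc, MycN and Minimal Myc cells and at 707 FPKM in Vector cells. Ptprc, Pecam1 and Epcam, which mark immune, endothelial and epithelial cells, were at or under 0.383 FPKM in every library. Of the 16 immune markers found, from a list of 17, 3 were measured, Cd14, Cd68 and Csf1r. All 16 together summed to 15.8, 15.8 and 16.5 FPKM in Myc, MycN and Minimal Myc cells and 13.0 FPKM in Vector cells. Of 11 endothelial markers 2 were measured, Egfl7 and Flt1. All 11 together summed to 4.52, 7.05 and 4.60 FPKM, against 2.90 FPKM in Vector cells. The part of other cells in the results below was not tested.

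Of the measured genes, 3011 (25.2%) were higher in all 3 and 3006 (25.2%) were lower in all 3, while 5933 had differences of both signs. The differences were mostly small. Among genes higher in all 3 the median centred difference was 0.40, 0.30 and 0.34 in Myc, MycN and Minimal Myc cells. Among genes lower in all 3 it was -0.45, -0.39 and -0.45. The 3 differences of a gene spanned a median of 0.35 (log2) in the higher genes and 0.38 in the lower ones. The smallest of the 3 reached 0.5 in 255 higher and 619 lower genes. At least 2-fold in all 3, 36 genes were higher (0.301%) and 176 were lower (1.47%). Of the 36, 12 were small RNA genes, a further 8 were listed at 0 in a library, and 16 were neither. Of the 176, 64 were small RNA genes, 5 more were listed at 0 and 107 were neither. These counts are what the rule itself selects on.

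At its edges the rule rests on very small values. The lowest mean kept was 1.001 FPKM (B230216N24Rik) and the highest left out was 0.998 FPKM (Prox2). The higher gene nearest to 0 was Brk1, whose smallest difference was 1.5e-05, and the nearest gene left out was Twf2, whose lowest difference was -1.5e-05. On the lower side Fbrs lay 8.25e-05 below 0 at its nearest, and Shc1 was left out by a difference of 0.000157.

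Centring sets the sign, so the word lower needs care. Before centring, the median difference to Vector was 0.47, 0.42 and 0.47 in Myc, MycN and Minimal Myc cells on the log2(FPKM + 1) scale. Without centring 7992 genes were above Vector in all 3 and 751 were below. In the authors' second table, in which each library is multiplied by a single factor (2.04 for Myc, 1.30 for MycN, 1.28 for Minimal Myc and 1 for Vector), 10045 were above and 225 below. All 3011 higher genes were above Vector in all 3 on each of these scales. Of the 3006 lower genes only 751 had less FPKM than Vector in all 3, and 853 had more in all 3. Lower in all 3 therefore means below the median shift of the library. Small RNA genes (symbols starting with Mir, Snora, Snord, Scarna or Rnu) held 12.3%, 17.1% and 10.2% of the summed FPKM in Myc, MycN and Minimal Myc cells and 41.4% in Vector cells. The share of this difference in the median shift was not tested.

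The promoters of 6 genes show where the E-box lies in genes with large differences. They are the windows from 250 bases before to 50 bases after the start, from RefSeq on the mouse build GRCm38.p6, of the first 4 named higher genes that hold CACGTG and of the first 2 named lower genes. Slpi (chr2:164356458-164356757, minus strand) encodes a secreted protease inhibitor. Fas (chr19:34290409-34290708, plus strand) encodes a death receptor. Slc29a1 (chr17:45595197-45595496, minus strand) encodes a nucleoside transporter, and Mccc2 (chr13:100015590-100015889, minus strand) encodes a subunit of an enzyme of leucine breakdown. Sprr1a (chr3:92485832-92486131, minus strand) encodes a cornified envelope protein and Hist2h2bb (chr3:96269450-96269749, plus strand; RefSeq symbol H2bc18) a histone H2B. Capitals mark CACGTG, and each line reads 5′ to 3′ on the strand of the gene.
Slpi: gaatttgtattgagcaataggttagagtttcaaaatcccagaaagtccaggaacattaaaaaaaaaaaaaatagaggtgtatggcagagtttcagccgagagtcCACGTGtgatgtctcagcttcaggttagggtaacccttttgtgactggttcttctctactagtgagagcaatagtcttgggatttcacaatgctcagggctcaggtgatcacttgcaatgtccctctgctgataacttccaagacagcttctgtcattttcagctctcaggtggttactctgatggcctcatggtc
Fas: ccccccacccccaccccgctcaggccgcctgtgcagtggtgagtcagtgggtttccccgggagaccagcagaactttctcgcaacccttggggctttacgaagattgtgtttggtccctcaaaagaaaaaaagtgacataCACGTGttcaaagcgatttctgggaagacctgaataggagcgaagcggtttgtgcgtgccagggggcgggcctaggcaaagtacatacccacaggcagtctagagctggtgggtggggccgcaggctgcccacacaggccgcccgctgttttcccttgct
Slc29a1: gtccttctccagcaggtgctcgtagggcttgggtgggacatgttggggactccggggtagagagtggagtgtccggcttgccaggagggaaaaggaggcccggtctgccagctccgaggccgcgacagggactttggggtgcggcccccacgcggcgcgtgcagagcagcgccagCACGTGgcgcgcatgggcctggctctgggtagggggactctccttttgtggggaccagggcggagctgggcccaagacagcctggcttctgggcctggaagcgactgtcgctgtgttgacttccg
Mccc2: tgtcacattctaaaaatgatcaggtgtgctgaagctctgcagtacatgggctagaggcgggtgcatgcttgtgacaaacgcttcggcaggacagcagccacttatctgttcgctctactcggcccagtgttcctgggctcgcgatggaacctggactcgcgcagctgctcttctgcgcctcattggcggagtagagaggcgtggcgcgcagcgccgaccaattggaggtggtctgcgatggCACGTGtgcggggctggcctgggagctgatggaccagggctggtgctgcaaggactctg
Sprr1a: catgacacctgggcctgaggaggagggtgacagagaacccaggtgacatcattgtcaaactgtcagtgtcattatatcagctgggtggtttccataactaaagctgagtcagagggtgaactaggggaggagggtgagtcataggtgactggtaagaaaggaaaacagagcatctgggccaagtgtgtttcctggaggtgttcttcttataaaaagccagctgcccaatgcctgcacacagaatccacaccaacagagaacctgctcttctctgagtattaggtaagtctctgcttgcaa
Hist2h2bb: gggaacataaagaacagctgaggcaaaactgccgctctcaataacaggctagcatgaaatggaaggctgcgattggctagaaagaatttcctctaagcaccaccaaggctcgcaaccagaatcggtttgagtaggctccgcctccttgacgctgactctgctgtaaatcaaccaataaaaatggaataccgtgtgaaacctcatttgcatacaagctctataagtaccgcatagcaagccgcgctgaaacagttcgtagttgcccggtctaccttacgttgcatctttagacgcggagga

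The motif is its own reverse complement, so a single search covers both strands. Relative to the start, its first base lies at position -146 in Slpi, -110 in Fas, -75 in Slc29a1 and -9 in Mccc2. The Sprr1a and Hist2h2bb windows hold no CACGTG, which says only that these letters are absent from these 300 bases. Of all 32851 promoter windows in the RefSeq table, 2349 (7.15%) hold the motif. Over the measured genes, 77.5% of which have a window, 1190 of 11766 windows (10.1%) hold it. Of 3027 windows of genes higher in all 3, 350 (11.6%) hold it, a share near that of the measured genes, with a window found for 82.2% of the higher genes. A window was found for only 73.3% of the genes lower in all 3, too few for a comparison of the classes, which is therefore void. Among lists with a window for at least 80% of members, the motif stood in 12 of 53 windows of ribosome biogenesis genes (22.6%), 8 of 44 of nucleotide synthesis genes (18.2%) and 4 of 13 of Myc network genes (30.8%). It also stood in 7 of 34 windows of immediate early genes (20.6%), a list with more lower than higher members, and in 5 of 22 of circadian clock genes (22.7%), of which 9 of 17 measured were lower. Other lists with more higher than lower members lay on both sides of the share of all measured genes. Above it were nuclear pore and transport genes with 8 of 46 windows (17.4%) and polyamine genes with 2 of 12 (16.7%). DNA replication genes with 7 of 47 (14.9%) and RNA polymerase I and III genes with 5 of 34 (14.7%) were also above. Below it were 3 of 31 windows of glycolysis genes (9.68%), 7 of 73 of mitochondrial ribosomal protein genes (9.59%) and 3 of 33 of mitosis genes (9.09%). Chaperonin and heat shock genes had it in 3 of 34 (8.82%) and serine and folate genes in 1 of 18 (5.56%). The motif stood in 0 of 16 windows of smooth muscle contractile genes. All measured genes, at 77.5%, fall under that limit of 80%, as do lysosome genes (78.4%) and translation factors (76.6%). Lysosome genes, with more lower than higher members, held it in 15 of 43 windows (34.9%), the largest share of the 35 lists. Translation factors held it in 12 of 44 (27.3%). Of the 15 leading higher genes, 3 of 12 with a window hold it, and of the 15 leading lower genes, 2 of 7.

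The leading higher genes included several for secreted and surface proteins. Slpi, the protease inhibitor above, had 49.0, 33.4 and 24.3 FPKM in Myc, MycN and Minimal Myc cells, against 0.815 FPKM in Vector cells. Its centred differences were 4.32, 3.83 and 3.33, so that even the lowest of the 3 was far above Vector. Saa3, an acute phase protein, had 30.7, 34.4 and 227 FPKM in the 3 Myc protein cultures, against 3.34 FPKM in Vector cells, and Minimal Myc cells stood apart as the highest. Stc1, a secreted glycoprotein hormone, had 9.49, 13.2 and 29.4 FPKM, against 0.942 FPKM in Vector cells. Igfbp3, which binds insulin-like growth factors, had 7.88, 25.3 and 39.8 FPKM, against 1.44 FPKM in Vector cells. In both, Minimal Myc cells were the highest and Myc cells the lowest of the Myc protein cultures. Sema3f, a secreted guidance cue, had 3.83, 22.9 and 6.20 FPKM, against 0.716 FPKM in Vector cells, with MycN cells far above the others. Slpi, Stc1 and Sema3f, and Cxcr7 and Cyp1b1 below, had under 1 FPKM in Vector cells. The filter on mean level kept these genes through the Myc protein cultures, and a low Vector value alone moves all 3 differences.

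Receptors and membrane proteins followed. Cxcr7, an atypical chemokine receptor, had 5.65, 16.8 and 14.3 FPKM in Myc, MycN and Minimal Myc cells, against 0.736 FPKM in Vector cells. Fas had 12.6, 18.2 and 16.6 FPKM, against 3.24 FPKM in Vector cells. Slc29a1 had 54.6, 49.2 and 32.9 FPKM, against 10.3 FPKM in Vector cells. Their lowest centred differences were 1.47 in Cxcr7, 1.21 in Fas and 1.12 in Slc29a1, each more than 2-fold. Emb, a partner of monocarboxylate transporters, had 16.6, 21.3 and 14.9 FPKM, against 3.66 FPKM in Vector cells. Mgst1, a membrane glutathione transferase, had 44.4, 38.9 and 74.1 FPKM, against 13.8 FPKM in Vector cells. Both had a lowest difference of over 1 on the log2 scale, 1.30 for Emb and 1.02 for Mgst1.

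Cyp1b1, a cytochrome P450 known as a target of the aryl hydrocarbon receptor, had 7.88, 3.27 and 9.34 FPKM in Myc, MycN and Minimal Myc cells, against 0.0512 FPKM in Vector cells. Its value in Vector lies close to 0, so the ratios are loosely set and the centred differences of 2.61, 1.61 and 2.83 are the better guide. Zfp281, a zinc finger transcription factor, had 15.1, 15.1 and 13.0 FPKM, against 4.003 FPKM in Vector cells. Cdc42ep5, an effector of the small GTPase Cdc42, had 23.9, 26.1 and 25.1 FPKM, against 8.18 FPKM in Vector cells. These 2 were also among the higher genes whose 3 differences spanned the least, with differences of 1.21, 1.27 and 1.02 in Zfp281 and of 0.97, 1.14 and 1.04 in Cdc42ep5. Lysmd2 and Hddc2 completed the 15, with lowest differences of 1.22 and 1.04.

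Among the other higher genes with nearly equal differences, Mki67ip, a nucleolar protein that binds Ki-67, had 45.6, 37.5 and 37.6 FPKM in Myc, MycN and Minimal Myc cells, against 13.8 FPKM in Vector cells. Mccc2 had 7.39, 5.88 and 6.49 FPKM, against 1.71 FPKM in Vector cells, and Tex30 had 35.1, 31.3 and 40.0 FPKM, against 11.9 FPKM in Vector cells. In each, the 3 Myc protein cultures lay close together and well apart from Vector. At the other end, Rtn4rl2, a receptor of the Nogo family, had 3.92, 25.4 and 1.20 FPKM, against 0.336 FPKM in Vector cells, and its difference in Minimal Myc cells was only 0.25. Nsg1, a neuronal endosome protein, had 7.39, 9.77 and 83.6 FPKM, against 3.22 FPKM in Vector cells, with most of its mean difference in Minimal Myc cells.

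**Figure D1:**
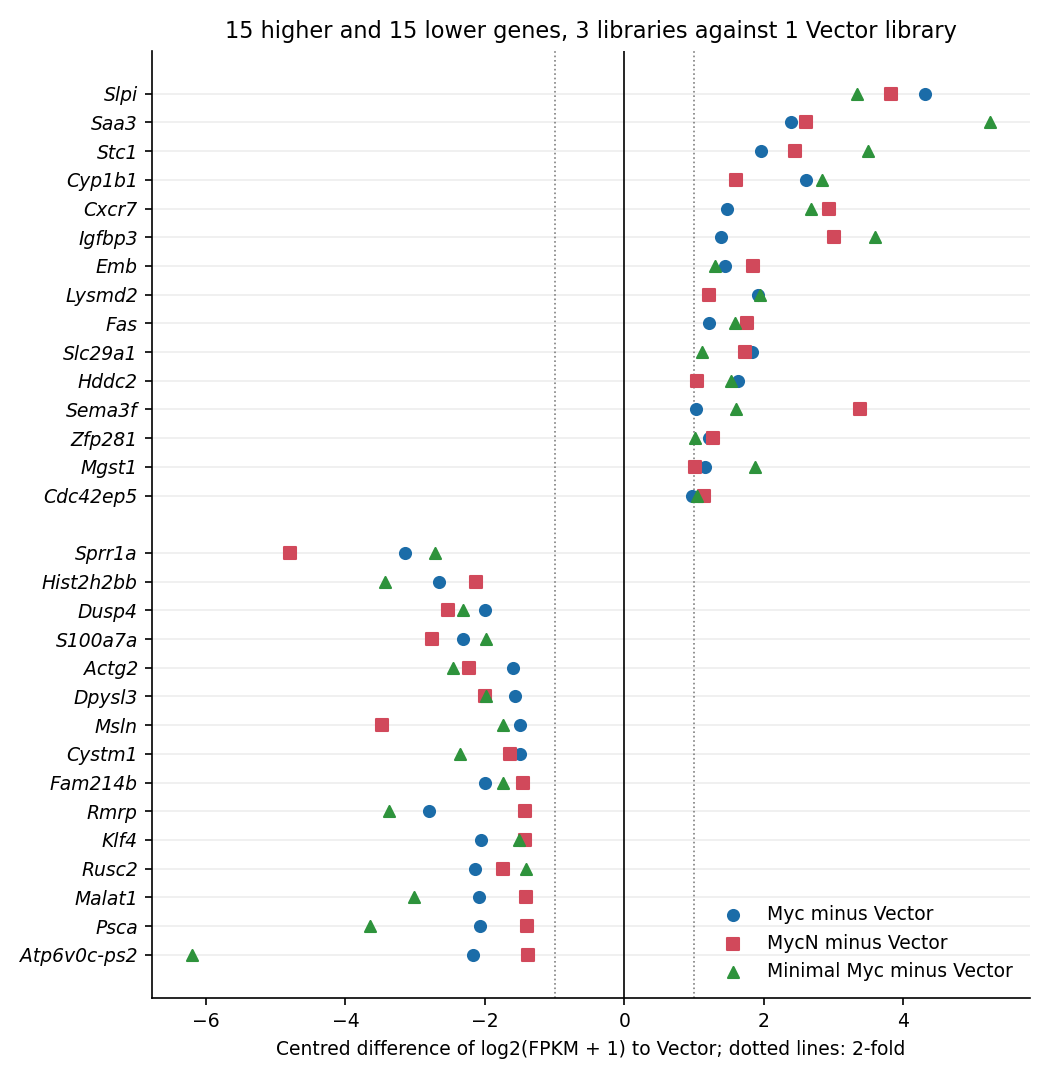
Centred difference of log2(FPKM + 1) to Vector (x axis) in Myc (circles), MycN (squares) and Minimal Myc (triangles) cells for the 15 leading higher and 15 leading lower genes, ranked by the smallest of the 3 differences, with 1 library per point and no error available. Slpi leads the higher genes at 4.32, 3.83 and 3.33, and Sprr1a the lower ones at -3.15, -4.80 and -2.71.

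All 15 leading lower genes had less FPKM than Vector in every Myc protein culture, so their direction does not come from centring. Dusp4, a phosphatase that switches off MAP kinases, had 14.7, 9.52 and 11.6 FPKM in Myc, MycN and Minimal Myc cells, against 44.3 FPKM in Vector cells. Klf4, a zinc finger factor of the serum response and of differentiation, had 5.43, 8.63 and 8.42 FPKM, against 18.3 FPKM in Vector cells. Their 3 differences lay at -1.99, -2.52 and -2.32 in Dusp4 and at -2.06, -1.42 and -1.50 in Klf4. Actg2, the smooth muscle gamma actin, had 7.18, 4.09 and 3.48 FPKM, against 16.9 FPKM in Vector cells. Dpysl3, a cytoskeleton regulator of growing axons, had 32.8, 23.2 and 24.4 FPKM, against 71.6 FPKM in Vector cells.

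Several surface and epithelial-type genes were also low. Sprr1a, a cornified envelope protein, had 2.84, 0.182 and 4.19 FPKM in Myc, MycN and Minimal Myc cells, against 23.6 FPKM in Vector cells. S100a7a, a calcium-binding protein of skin, had 9.35, 6.35 and 12.0 FPKM, against 36.2 FPKM in Vector cells. Both were lowest in MycN cells. Msln, the surface protein mesothelin, had 18.3, 3.73 and 15.3 FPKM, against 38.6 FPKM in Vector cells, and was again lowest in MycN cells. Psca, a surface antigen held by a lipid anchor, had 8.98, 14.3 and 2.32 FPKM, against 29.2 FPKM in Vector cells, and was lowest in Minimal Myc cells. Cystm1, a small membrane protein, had 6.19, 5.31 and 2.98 FPKM, against 13.7 FPKM in Vector cells. The smallest of the 3 differences was 1.45 in Fam214b and 1.41 in Rusc2, which completed the 15. Atp6v0c-ps2, which by its symbol is a pseudogene copy of a proton pump gene, had 15.7, 26.8 and 0.0221 FPKM, against 53.2 FPKM in Vector cells. Its reads can be shared with its parent gene, so its values are uncertain.

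Of 27 keratinocyte and cornified envelope markers found in the table, from a list of 28, 6 were measured and 5 of these were lower in all 3, 4 of them at least 2-fold. The median level of the 6 was 1.80, 0.111 and 2.93 FPKM, against 10.8 FPKM in Vector cells. The filter on mean level can keep such genes through Vector alone, and these then come out lower. With no filter the median difference over the 27 was -0.07, in place of -2.85 over the 6. The summed level of all 27 found was 19.1, 8.80 and 20.3 FPKM in Myc, MycN and Minimal Myc cells, against 75.6 FPKM in Vector cells. Krt19, a keratin, had 10.6, 4.34 and 1.66 FPKM, against 13.2 FPKM in Vector cells. The basal keratins Krt5 and Krt14 were at or under 0.253 FPKM in all 4 libraries, so the markers that differed were cornified envelope genes and Krt19 without the keratins that define the cell type. Fewer cells of a type and less RNA per cell cannot be told apart in bulk RNA, and the part of other cells in these values was not tested.

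The lower genes whose 3 differences were most alike included large proteins of the cytoskeleton. Map1a, a microtubule-associated protein, had 4.46, 4.28 and 4.69 FPKM in Myc, MycN and Minimal Myc cells, against 9.36 FPKM in Vector cells. Macf1, which links microtubules with actin, had 14.3, 12.9 and 16.3 FPKM, against 24.7 FPKM in Vector cells. Plec, a linker of intermediate filaments, had 37.4, 38.5 and 33.0 FPKM, against 54.9 FPKM in Vector cells. The 3 Myc protein cultures lay within 0.06 of each other on the log2 scale in Map1a and all were below Vector in each gene. Nbea, a protein of membrane traffic, had 12.5, 10.0 and 13.0 FPKM, against 19.97 FPKM in Vector cells. Oasl1, an interferon-induced gene, had 2.88, 1.17 and 27.6 FPKM, against 23.1 FPKM in Vector cells. Its FPKM in Minimal Myc cells was above Vector and only the centred difference of -0.22 was below 0. Iqgap2, a scaffold of the actin cortex, was likewise uneven, at 13.8, 0.716 and 8.74 FPKM, against 10.4 FPKM in Vector cells.

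The Myc network came next by role. Of 12 measured members 7 were higher in all 3 and 0 were lower, against 25.2% and 25.2% over all genes. Max, the partner of Myc, had 37.3, 36.2 and 34.5 FPKM in Myc, MycN and Minimal Myc cells, against 18.8 FPKM in Vector cells. Mxd3, a competitor for Max, had 36.9, 23.6 and 29.6 FPKM, against 14.4 FPKM in Vector cells. Both partner and competitor genes were thus above Vector, and Mxi1 was too, with a difference of 0.07 in Minimal Myc cells as its lowest.

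Ribosome assembly genes were higher together. Of 57 measured members 41 were higher in all 3 (71.9%) and 1 was lower. Among genes of 20 to 100 FPKM 35.3% were higher and 16.4% lower. The median difference of the list was 0.80, 0.30 and 0.40 in Myc, MycN and Minimal Myc cells. Ncl, the nucleolar protein nucleolin, had 221, 153 and 163 FPKM in Myc, MycN and Minimal Myc cells, against 59.9 FPKM in Vector cells. Ppan, a factor of large subunit assembly, had 61.1, 49.2 and 50.5 FPKM, against 19.5 FPKM in Vector cells. Wdr75, a factor of pre-rRNA processing, had 47.7, 42.2 and 46.1 FPKM, against 16.1 FPKM in Vector cells. All 57 members had more FPKM than Vector in all 3 cultures, as did 7992 of all 11950 measured genes. The 15 members neither higher nor lower in all 3 had centred differences of both signs. Among RNA polymerase I and III genes 21 of 33 were higher (63.6%) and 0 lower, against 24.7% and 23.3% among genes of 5 to 20 FPKM. Polr1c, a subunit of both enzymes, had 89.0, 79.8 and 66.9 FPKM in the 3 Myc protein cultures, against 36.8 FPKM in Vector cells.

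Among the 35 lists, genes of the ribosome itself had the largest share of higher members. Of 82 measured cytosolic ribosomal protein genes 70 were higher in all 3 (85.4%) and 0 lower. These genes are abundant, and among genes of 100 FPKM or more 46.7% were higher and 13.2% lower. Rps27a had 1623, 1180 and 1185 FPKM in Myc, MycN and Minimal Myc cells, against 506 FPKM in Vector cells, and Rpl7 had 1029.6, 904 and 938 FPKM, against 431 FPKM in Vector cells. Processed copies of these genes can share their reads, which makes single values uncertain. Of 76 mitochondrial ribosomal protein genes 43 were higher (56.6%) and 0 lower, against 35.3% and 16.4% among genes of 20 to 100 FPKM. Mrpl44 had 17.5, 19.1 and 22.0 FPKM, against 8.22 FPKM in Vector cells. Of 47 translation factors 26 were higher (55.3%) and 2 lower (4.26%), against 46.7% and 13.2% among genes of 100 FPKM or more. Eif5b, which joins the ribosomal subunits, had 34.2, 30.6 and 32.3 FPKM, against 13.4 FPKM in Vector cells, and Eef1b2, an elongation factor subunit, had 303, 291 and 261 FPKM, against 118 FPKM.

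Chaperone and nucleotide genes leaned the same way. Of 31 chaperonin and heat shock genes 22 were higher (71.0%) and 2 lower (6.45%), against 46.7% and 13.2% among genes of 100 FPKM or more. Hspd1 and Hspe1 form the mitochondrial chaperonin: Hspd1 had 532, 393 and 491 FPKM in Myc, MycN and Minimal Myc cells, against 150 FPKM in Vector cells, and Hspe1 had 466, 357 and 499 FPKM, against 163 FPKM. Hspb1, a small heat shock protein, was lower after centring, at 20.3, 6.93 and 13.1 FPKM, against 20.3 FPKM in Vector cells. Of 38 nucleotide synthesis genes 24 were higher (63.2%) and 2 lower (5.26%), against 35.3% and 16.4% among genes of 20 to 100 FPKM. Dtymk, the thymidylate kinase, had 192, 223 and 151 FPKM, against 69.3 FPKM in Vector cells, and Atic, an enzyme of purine synthesis, had 104, 64.1 and 76.9 FPKM, against 31.2 FPKM. Ak4, a mitochondrial adenylate kinase, had 14.7, 7.82 and 8.50 FPKM, against 2.53 FPKM in Vector cells. Of 12 polyamine genes 5 were higher (41.7%) and 2 lower (16.7%), shares near those of genes of 20 to 100 FPKM. Srm, the spermidine synthase, led them at 254, 190 and 143 FPKM in the 3 Myc protein cultures and 56.9 FPKM in Vector cells. In Ak4, Atic and Srm the Myc cells were the highest.

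Of 49 nuclear pore and transport genes 25 were higher and 1 lower, with the importin Kpna2 at 272, 279 and 212 FPKM in Myc, MycN and Minimal Myc cells and at 104 FPKM in Vector cells. Of 46 DNA replication genes 29 were higher and 1 lower, and Mcm6, a subunit of the replicative helicase, had 84.7, 82.1 and 94.0 FPKM, against 35.0 FPKM in Vector cells. Of 36 mitosis genes 16 were higher and 3 lower, and Ccnb2, a mitotic cyclin, had 75.0, 82.2 and 57.0 FPKM, against 28.8 FPKM in Vector cells. The share of higher members was 51.0% in nuclear pore and transport, 63.0% in replication and 44.4% in mitosis. Among genes of 20 to 100 FPKM it was 35.3%. Of 57 oxidative phosphorylation genes 22 were higher (38.6%) and 3 lower, less than the 46.7% higher among genes of 100 FPKM or more. Of 20 glycolysis genes 6 were higher (30.0%) and 2 lower, at a median level of 49.5 FPKM, so that their share also lay under the 35.3% of genes of 20 to 100 FPKM. Of 21 serine and folate genes 7 were higher (33.3%) and 3 lower (14.3%), near the 35.3% and 16.4% of genes of 20 to 100 FPKM. Of 15 housekeeping genes 5 were higher (33.3%) and 1 lower, a higher share under the 46.7% of genes of 100 FPKM or more. Tfrc, the transferrin receptor, had 68.3, 56.2 and 57.0 FPKM, against 21.7 FPKM in Vector cells.

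**Figure D2:**
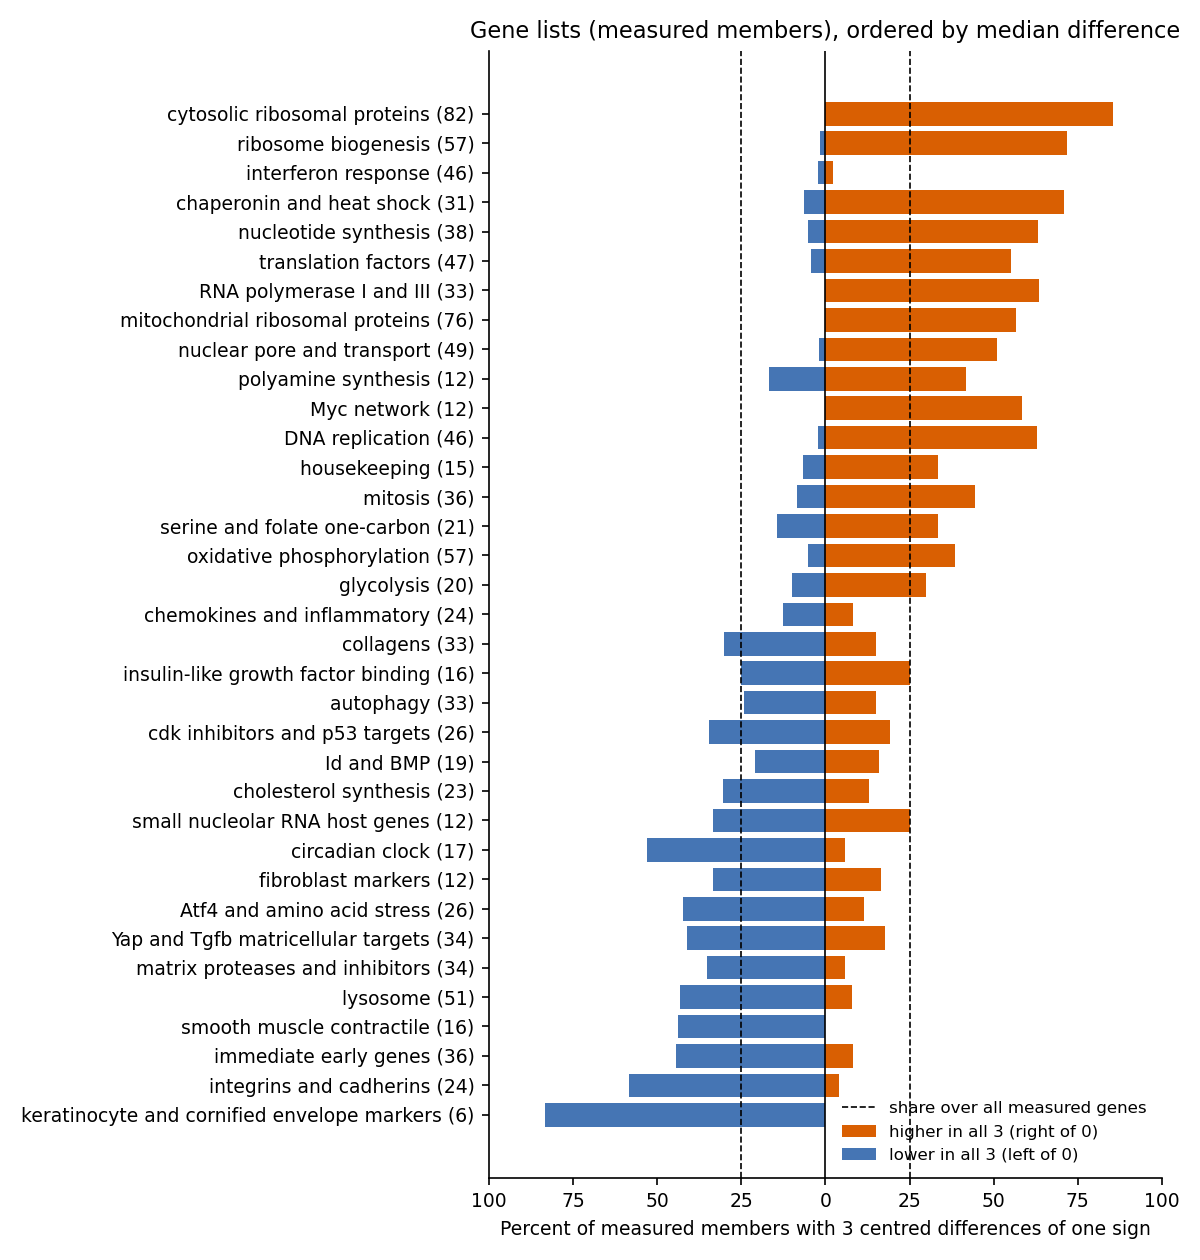
Percent of measured members (x axis) that were higher in all 3 (right of 0) or lower in all 3 (left of 0) for the 35 lists with at least 5 measured members (number in brackets), with dashed lines at the 25.2% of all measured genes. Cytosolic ribosomal proteins reach 85.4% on the higher side and keratinocyte and cornified envelope markers 83.3% on the lower side. The latter share rests on 6 genes, which the filter on mean level can keep through Vector alone.

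Lysosome genes lay on the lower side of the median shift. Of 51 measured members 22 were lower in all 3 and 4 higher, with a list median of -0.31 that became 0.14 without centring and 0.70 in the scaled table. Only 5 of the 51 had less FPKM than Vector in all 3, and 17 had more. Ctsd, the protease cathepsin D, had 151, 158 and 154 FPKM in Myc, MycN and Minimal Myc cells, against 228 FPKM in Vector cells, and the 3 Myc protein cultures were nearly equal. Npc1, a cholesterol exporter of the lysosome, had 12.9, 10.6 and 12.8 FPKM, against 14.7 FPKM in Vector cells. Smpd1, the acid sphingomyelinase, had 14.6, 11.7 and 15.9 FPKM, against 16.8 FPKM. Of 33 autophagy genes 8 were lower (24.2%) and 5 higher, a lower share near that of all genes.

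Adhesion and contractile genes also lay on the lower side. Of 24 integrins and cadherins 14 were lower in all 3 and 1 higher, 10 had less FPKM than Vector in all 3, and the list median was -0.69, or -0.24 without centring and 0.33 in the scaled table. Mcam, a surface adhesion protein, had 3.17, 14.3 and 5.85 FPKM in Myc, MycN and Minimal Myc cells, against 25.7 FPKM in Vector cells. Cdh2, N-cadherin, had 34.5, 11.6 and 30.7 FPKM, against 46.8 FPKM in Vector cells. Itgb7, an integrin subunit, had 4.103, 2.50 and 7.96 FPKM, against 10.4 FPKM in Vector cells. Each was below Vector in all 3 cultures, with Cdh2 and Itgb7 lowest in MycN cells and Mcam lowest in Myc cells. Of 16 contractile genes 7 were lower and 0 higher, with a median of -0.45 that was 0.00 without centring and 0.56 in the scaled table, and in Minimal Myc cells the median was only -0.03. Tpm2, a tropomyosin, had 48.2, 60.6 and 68.8 FPKM, against 103 FPKM in Vector cells.

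Of 34 Yap and Tgfb matricellular targets 14 were lower and 6 higher, with a median of -0.28 that became 0.17 without centring and 0.74 in the scaled table. Ctgf, a matricellular protein, had 16.8, 31.0 and 68.5 FPKM in Myc, MycN and Minimal Myc cells, against 119 FPKM in Vector cells. Ankrd1, a nuclear muscle-type repeat protein and a standard Yap target, had 97.6, 63.2 and 91.8 FPKM, against 126 FPKM in Vector cells, and Smad7, an inhibitor of Tgfb signalling, had 16.6, 24.4 and 20.9 FPKM, against 29.9 FPKM. Minimal Myc cells were nearest to Vector in Ctgf and MycN cells in Smad7. Of 34 matrix protease genes 12 were lower and 2 higher, with a median of -0.29 that became 0.16 without centring and 0.68 in the scaled table. Plau, the urokinase protease, had 4.01, 6.31 and 9.28 FPKM, against 13.2 FPKM in Vector cells, whereas Serpine2, an inhibitor of such proteases, had 12.8, 20.7 and 12.9 FPKM, against 4.64 FPKM in Vector cells. Of 33 collagen genes 10 were lower (30.3%) and 5 higher (15.2%), against 25.2% and 25.2% over all genes, and the list median was 0.03. Serpinh1, the collagen chaperone, was higher and nearly equal in all 3, at 346, 347 and 353 FPKM, against 178 FPKM in Vector cells.

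**Figure D3:**
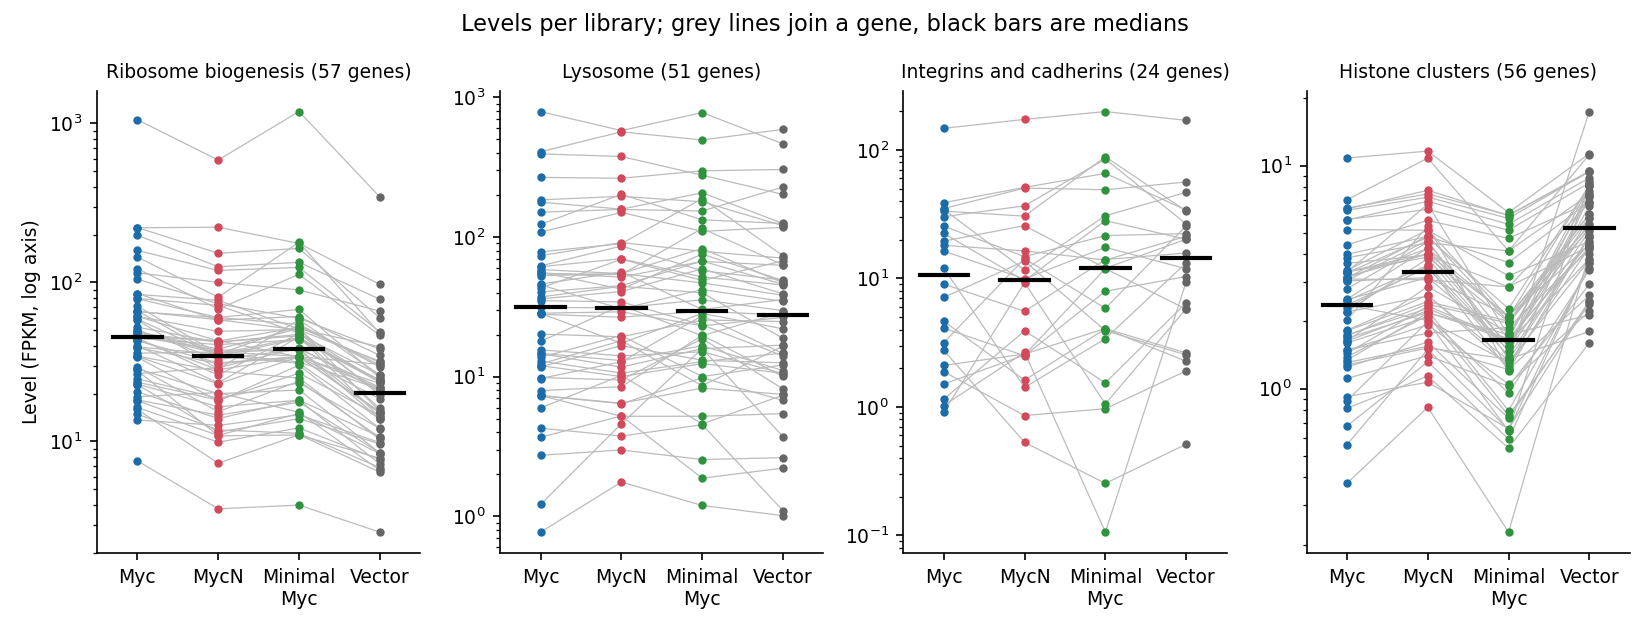
Level in FPKM (log axis) of every measured ribosome biogenesis, lysosome, integrin and cadherin, and histone cluster gene in Myc, MycN, Minimal Myc and Vector cells, with 1 library each, grey lines joining a gene and black bars at the medians. Median levels of ribosome biogenesis genes are 45.6, 34.5 and 38.1 FPKM in the Myc protein cultures and 20.2 FPKM in Vector cells, while those of histone cluster genes are 2.37, 3.32 and 1.66 FPKM, against 5.24 FPKM.

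Immediate early genes, the first genes switched on by serum and stress, had 16 of 36 members lower and 3 higher, with a median of -0.46 that was -0.01 without centring and 0.54 in the scaled table. Gadd45a, a growth arrest gene, had 10.5, 16.3 and 16.2 FPKM in Myc, MycN and Minimal Myc cells, against 24.8 FPKM in Vector cells. Nr4a2, an orphan nuclear receptor, had 8.18, 1.998 and 8.05 FPKM, against 11.7 FPKM in Vector cells. Of 26 cell cycle inhibitor and p53 target genes 9 were lower (34.6%) and 5 higher (19.2%), with a list median of -0.03. Over all genes 25.2% were lower and 25.2% higher. Cdkn1a, the inhibitor p21, had 9.92, 16.5 and 8.18 FPKM, against 25 FPKM in Vector cells, while Cdkn2a, the locus of p16 and p19Arf, had 536, 543 and 737 FPKM, against 227 FPKM in Vector cells. The 2 inhibitor genes therefore lay on opposite sides in all 3 cultures. Of 26 Atf4 and amino acid stress genes 11 were lower and 3 higher, with a median of -0.22 that became 0.23 without centring and 0.78 in the scaled table. Chac1, a glutathione-degrading enzyme, had 15.2, 17.1 and 20.8 FPKM, against 26.6 FPKM in Vector cells, whereas Ddit4, an inhibitor of mTOR signalling, had 48.8, 42.9 and 17.2 FPKM, against 8.97 FPKM.

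Other lists had smaller or divided counts, to be set beside the 25.2% lower and 25.2% higher over all genes. Of 17 circadian clock genes 9 were lower and 1 higher, with the repressor Nr1d1 at 11.9, 18.9 and 11.4 FPKM in Myc, MycN and Minimal Myc cells and at 26.8 FPKM in Vector cells, although the list median of -0.15 became 0.30 without centring. Of 23 cholesterol synthesis genes 7 were lower and 3 higher, and of 16 insulin-like growth factor binding genes 4 were lower and 4 higher. Of 19 Id and BMP genes 4 were lower and 3 higher, and Id3, an inhibitor of differentiation factors, had 328, 438 and 301 FPKM, against 155 FPKM in Vector cells. Of 12 small nucleolar RNA host genes 4 were lower and 3 higher. Of 12 fibroblast markers 4 were lower (33.3%) and 2 higher (16.7%). Dcn, a small matrix proteoglycan, had 330, 135 and 247 FPKM, against 81.6 FPKM in Vector cells.

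Interferon genes did not move together. Of 46 measured members 1 was higher and 1 lower in all 3, and the list median was -0.24, -0.88 and 2.53 in Myc, MycN and Minimal Myc cells. The median of 0.44 over the 3 cultures became -0.63 when Minimal Myc was left out, and 1.12 when MycN was left out. Irf1, a transcription factor of the interferon response, was the member higher in all 3 (Oasl1 above was the lower one), at 29.9, 28.5 and 43.1 FPKM, against 12.6 FPKM in Vector cells. Of 24 chemokine and inflammatory genes 2 were higher and 3 lower. Lcn2, an iron-carrier binding protein, had 8.73, 55.2 and 31.0 FPKM, against 4.04 FPKM in Vector cells, while Ccl5, a chemokine, had 29.6, 74.7 and 125 FPKM, against 159 FPKM.

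RNAs that mostly lack a long poly(A) tail were lower as a group. Messages of the replication-dependent histone clusters end in a stem loop and no poly(A) tail, and the libraries were made from poly(A)-selected RNA. All 56 measured histone cluster genes were lower in all 3, 22 of them at least 2-fold, and 52 had less FPKM than Vector in all 3. This family was examined after its values had been seen. Its median difference was -1.26, or -0.81 without centring and -0.35 in the scaled table. The summed level of all 68 histone cluster genes found, measured or not, was 162, 216 and 123 FPKM in Myc, MycN and Minimal Myc cells, against 331 FPKM in Vector cells. Histone genes share near-identical sequence, so single values are uncertain. Hist2h2bb, the lowest by the smallest of its 3 differences, had 3.05, 4.62 and 1.36 FPKM, against 17.5 FPKM in Vector cells.

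Rmrp, the RNA of the enzyme RNase MRP, had 22.5, 57.7 and 14.9 FPKM in Myc, MycN and Minimal Myc cells, against 118 FPKM in Vector cells. Malat1, a nuclear long noncoding RNA, had 124, 192 and 64.0 FPKM, against 381 FPKM in Vector cells. Rpph1, the RNA of RNase P, had 12.2, 35.6 and 11.6 FPKM, against 55.9 FPKM in Vector cells. In each, and in the summed histone genes, MycN cells were the highest and Minimal Myc cells the lowest of the Myc protein cultures, and all were below Vector. Of the 310 small RNA genes 131 were lower in all 3, 43 were higher and 136 were mixed. Over all measured genes 25.2% were lower and 25.2% higher. The part of cell cycle phase, poly(A) selection or RNA composition in these differences was not tested. Without the small RNA, histone and untailed RNA genes, an alternative chosen after seeing the data, 87 genes were at least 2-fold lower in all 3 in place of 176.

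The class of a gene went with its level. Among genes of 1 to 5 FPKM 9.72% were higher in all 3 and 40.4% lower, whereas among genes of 100 FPKM or more 46.7% were higher and 13.2% lower. Part of this follows from the scale, since adding 1 FPKM shrinks the difference of a low gene while the full median is subtracted. With 0.1 FPKM added in its place the shares were 15.8% higher and 34.0% lower at 1 to 5 FPKM and 40.3% and 15.6% at 100 FPKM or more, so a gradient in the same direction remained. The class also went with transcript length in GENCODE, the longest transcript matched to a gene, which was found for 98.1% of genes. Among genes of at least 5 FPKM 30.3% were higher and 23.5% lower at lengths under 1 kb, and 36.9% were higher and 14.7% lower at 1 to 2 kb, while 14.3% were higher and 37.8% lower among the 315 genes of 8 kb or more. The part of length in the differences was not tested.

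**Figure D4:**
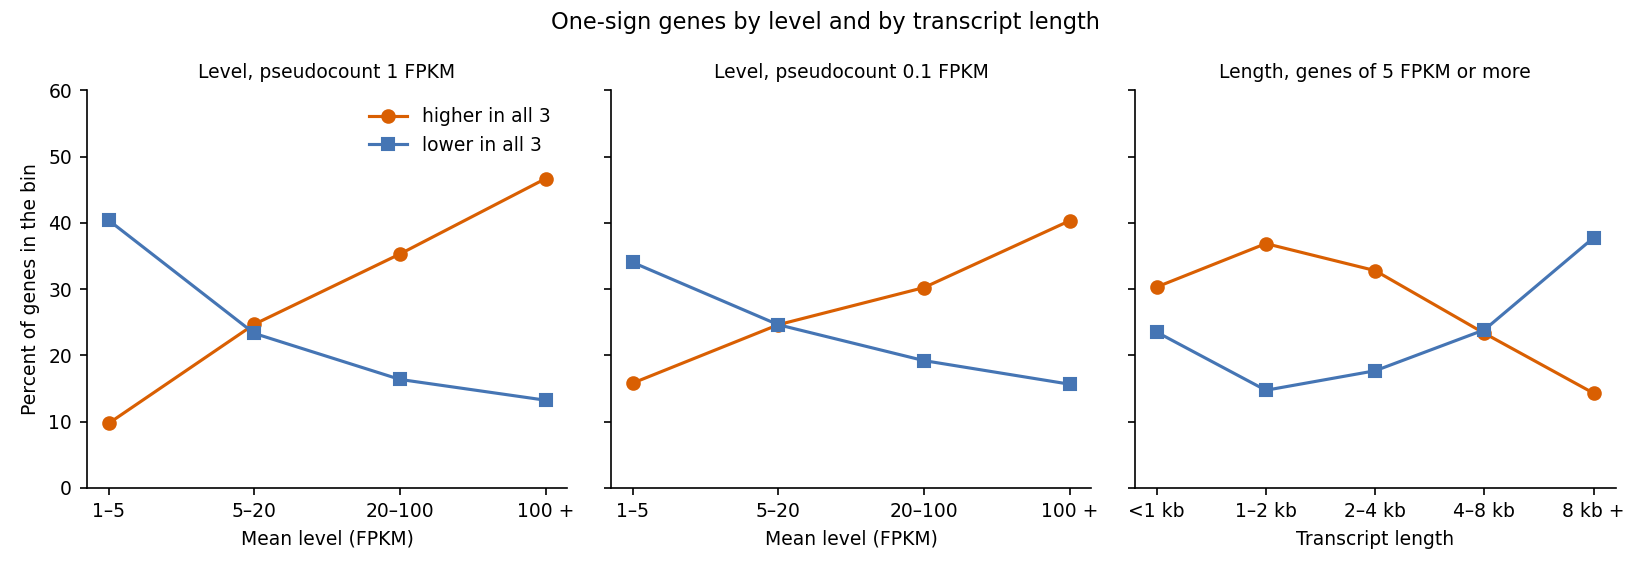
Percent of genes higher in all 3 (circles) and lower in all 3 (squares) by mean level with 1 FPKM added (left), by mean level with 0.1 FPKM added (middle) and by transcript length for genes of at least 5 FPKM (right). The share of higher genes climbs with level to 46.7% at 100 FPKM or more. By length it is 30.3% under 1 kb, highest at 36.9% at 1 to 2 kb and lowest at 14.3% at 8 kb or more.

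NanoString, which counts RNA molecules by hybridized probes, gave a readout of 30 of the genes that the rule did not use. The authors deposited it for the same 4 samples, with a normalization that the sources used here do not give. By FPKM, 17 of the 30 were higher in all 3, 11 were mixed, 0 were lower and 2 were under 1 FPKM. Of the 17, 14 had a NanoString signal above Vector in all 3 cultures, as did 3 of the 11 mixed genes. The median NanoString ratio to Vector was 2.31, 1.63 and 1.38 in Myc, MycN and Minimal Myc cells over the 17 and 1.54, 0.979 and 1.10 over the 11. The NanoString ratios of all 30 genes had medians of 2.04, 1.28 and 1.23, and 7 of the 17 higher genes but 0 of the 11 mixed genes exceeded them in all 3. No gene of the lower class was on the panel, so that class has no such second readout.

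Ptma, the nuclear protein prothymosin alpha, had NanoString signals of 151092, 125090 and 85174 in Myc, MycN and Minimal Myc cells, against 49105 in Vector cells. Ncl had signals of 2049, 1537 and 1166, against 799 in Vector cells, and Npm1, the nucleolar protein nucleophosmin, had 111489, 60655 and 78556, against 37173. These 3 were above Vector in every culture in both readouts. The 3 of the 17 that were not above Vector throughout were Ldha, the lactate dehydrogenase, at 0.951 times Vector in Minimal Myc cells, Alas1, an enzyme of heme synthesis, at 0.954 times Vector in MycN cells, and Polr2a, the largest subunit of RNA polymerase II, at 0.888 times Vector in MycN cells. Their FPKM ratios in those cultures were 1.46, 1.71 and 1.57.

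**Figure D5:**
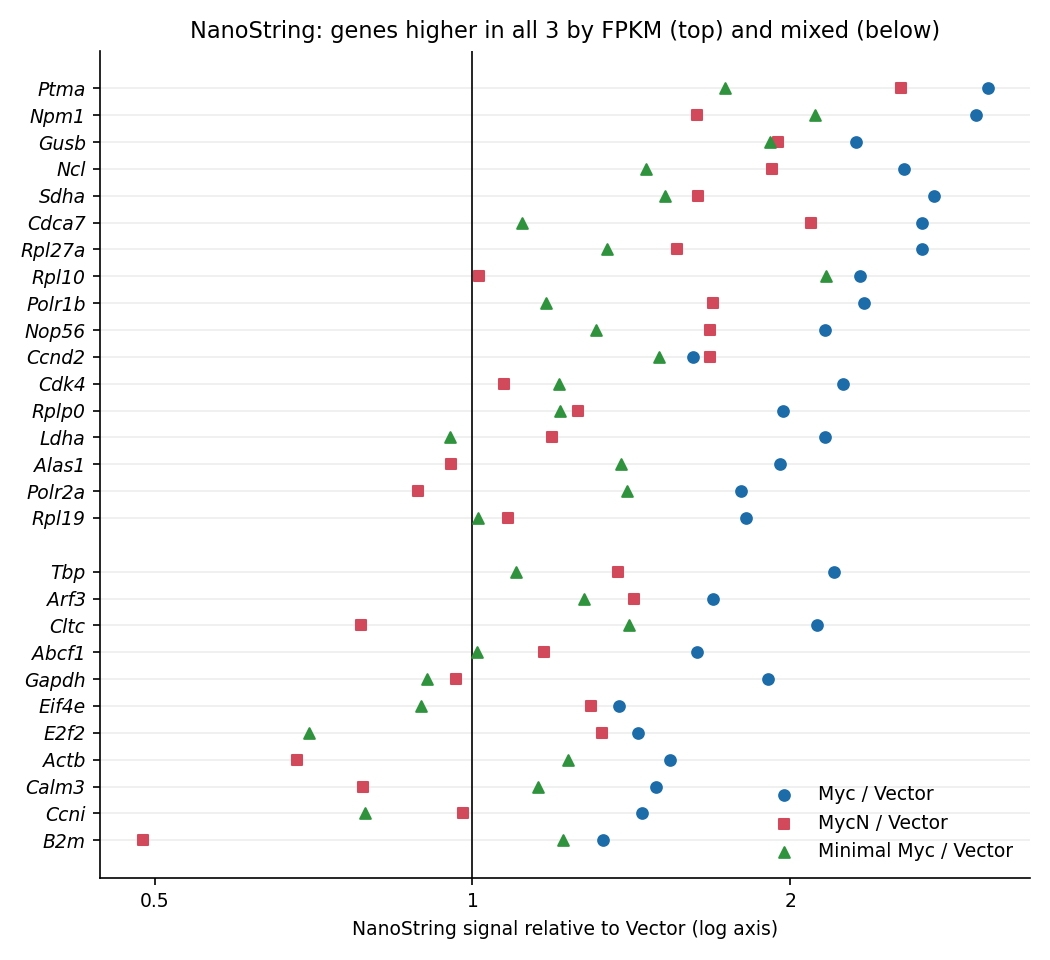
NanoString signal relative to Vector (log axis) in Myc (circles), MycN (squares) and Minimal Myc (triangles) cells for the 17 panel genes higher in all 3 by FPKM (top) and the 11 mixed genes (below), with 1 value per point. Of the 17, 14 lie right of 1 in all 3 cultures, and B2m in MycN cells lies farthest left at 0.487.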

How the data were processed

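RNA was measured in 4 cultures, 1 library each for Myc, MycN, Minimal Myc and Vector. The submitters' processing notes name the mouse build mm9, Cufflinks 2.2.0 and TopHat2 2.0.11 without their roles. The authors deposited FPKM for 26576 identifier rows and, in the same columns, a NanoString signal for 30 genes (32 rows); the authors' second table multiplies each library by a single factor. Read depth cannot be had from FPKM, so no counting interval stands beside a value. Rows of a gene name with identical values were merged and differing rows summed (189 genes).

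Differences to Vector of log2(FPKM + 1), which understate those of low genes, were centred per library, for genes that averaged 1 FPKM or more, small RNA genes included. No test was run, because each group has 1 library. Whether a value listed at 0 is a failed estimate is unknown, so such genes are not named. The calculation was tested on simulated data (Python 3.11.15, numpy 2.4.6, pandas 2.3.3, figures with matplotlib 3.10.9). The members, 40 gene lists and rules were chosen with earlier results of these data known.

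Named genes have one sign, no value of 0, a mean of at least 5 FPKM, no small RNA symbol, no clone-type symbol (Gm and a number, LOC, Rik) and no differing rows. They are the 15 higher and 15 lower with the largest smallest-of-3 difference. Of those with a mean difference of at least 1 they are also the 5 per direction that span the least and the 3 that span the most. Up to 4 members of each list with 5 or more measured were added, of which the text gives a selection. Genes outside the rule (the edge genes, Rpph1, cell type markers, NanoString genes and 6 families) were chosen after their values were seen.

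Promoters came from RefSeq (GRCm38.p6), a later build than that of the files. Transcript lengths came from GENCODE, as the longest transcript matched to the RefSeq identifiers of a gene. A promoter was found for 77.5% of measured genes. No gene coordinates of the files were used.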

Additional observations from a re-analysis of the deposited data

How the results depend on the processing

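The counts at 2-fold and the lower class depended most on scale. With 0.1 FPKM added, 79 genes were at least 2-fold higher in all 3. With a mean of at least 5 FPKM, 85 were at least 2-fold lower. With no filter on low values the counts were 8447 higher and 8508 lower, and 167 and 116 at 2-fold. Without centring they were 7992 and 751, and 190 and 92 at 2-fold, and with the authors' scaling they were 10045 and 225, and 1425 and 66. Without small RNA genes 113 were at least 2-fold lower, without genes listed at 0 20 were at least 2-fold higher, and without small RNA, histone and untailed RNA genes, an alternative chosen after seeing the data, 87 were at least 2-fold lower. Leaving out each Myc protein library in turn gave 3552 to 4242 higher and 3552 to 4242 lower genes, and 63 to 84 and 221 to 338 at 2-fold, since 2 differences then had to share a sign; Vector could not be left out. Of 35 list medians, 11 changed sign with no filter and 11 without centring, and 14 with the authors' scaling. With no filter these were lysosome (0.11), Yap and Tgfb (0.15), matrix protease (0.085) and Atf4 genes (0.21), and 7 lists whose reported medians were under 0.2 in size. Those 7, namely small nucleolar RNA host, autophagy, Id and BMP, cdk inhibitor and p53, cholesterol, circadian and fibroblast genes, came to between 0.031 and 0.40. Without centring the first 4 lists came to 0.14, 0.17, 0.16 and 0.23 and the 7 to between 0.28 and 0.42. With the authors' scaling they came to 0.70, 0.74, 0.68 and 0.78 and to between 0.74 and 0.97, and contractile (0.56), integrin and cadherin (0.33) and immediate early genes (0.54) changed sign as well. These last 3 lists stayed below 0 with no filter and without centring, and changed sign only with the authors' scaling. With no filter the subtracted medians were only 0.0195, 0.0323 and 0.00848 in Myc, MycN and Minimal Myc cells. The interferon median ranged from -0.63 without Minimal Myc to 1.12 without MycN. No paired analysis was possible because each group has 1 library and no test was run.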

Other observations

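Families chosen after their values were seen gave further counts. Of 19 measured proton pump genes (symbols starting with Atp6) 10 were lower in all 3 and 0 higher, with a median centred difference of -0.32 that became 0.13 without centring and 0.72 in the scaled table. Atp6v1g1, a subunit of the pump that acidifies lysosomes, had 204, 236 and 267 FPKM in Myc, MycN and Minimal Myc cells, against 451 FPKM in Vector cells. It lay below Vector in all 3 cultures.

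Of 299 measured zinc finger genes with Zfp symbols 54 were higher in all 3 (18.1%) and 79 lower (26.4%), and 234 had more FPKM than Vector in all 3. Of 823 genes known only by clone-type symbols 128 were higher (15.6%) and 338 lower (41.1%), at a median level of 4.49 FPKM, with a median difference of -0.14 that became 0.31 without centring. Among all genes of 1 to 5 FPKM 9.72% were higher and 40.4% lower, so the lower share of the clone-type genes was near that of their level. The Zfp genes had a median level of 4.12 FPKM and a lower share under that 40.4%. Of 1456 olfactory and vomeronasal receptor genes only 6 were measured, and 5 of these were lower in all 3. The summed level of all 1456 was 40.1, 57.4 and 43.7 FPKM in Myc, MycN and Minimal Myc cells, against 85.0 FPKM in Vector cells.

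Of 12 neural markers 4 were measured, 2 lower in all 3 and 2 mixed (Map2 and Syt1). All 12 together summed to 25.2, 31.6 and 23.4 FPKM in Myc, MycN and Minimal Myc cells, against 36.6 FPKM in Vector cells. Tubb3, a neuronal beta tubulin, had 12.6, 16.3 and 8.88 FPKM in the 3 Myc protein cultures, against 20.6 FPKM in Vector cells. Nes, an intermediate filament gene of progenitor cells, had 7.13, 7.70 and 10.3 FPKM, against 11.5 FPKM in Vector cells. The neuronal genes Rbfox3 and Dcx were at or under 0.139 FPKM in all 4 libraries, and the part of other cells was not tested.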
